A study of Mus musculus with 28 samples.

Results

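Liver gene expression was compared between 2 mouse models of fatty liver disease with inflammation (non-alcoholic steatohepatitis) to find the genes that moved in opposite directions in them. For each gene the effect of a diet deficient in methionine and choline (MCD effect, MCD minus its control CD) was set against the effect of the STAM model at 10 weeks of age (STAM effect, 10wk_STAM minus 10wk_Ctrl). The comparison used 18 of the 28 samples of the series. Of 20416 genes in each table, 14986 were tested, those above the 25th percentile of mean level in both tables. A gene is called opposite here when both effects passed the test with different signs, which held for 573 genes (3.82%). In 310 of them the level was higher in MCD and lower in STAM livers, and in 263 it was lower in MCD and higher in STAM livers.

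In the diet study, male C57BL/6 mice received a diet without methionine and choline, or a low-fat control diet matched to it (4 livers each). The age of these mice is not stated, and the labels give both 4 and 5 weeks for the length of the study. In the STAM study, male C57BL/6 mice received streptozotocin, a toxin of the insulin-producing beta cells, on postnatal day 2 and a high-fat diet from week 4 on, and livers were taken at 10 weeks of age beside those of mice on a control diet (5 each). The models thus differ in diet, toxin, age and table, and the part of each in a difference cannot be told apart. Whether each sample is a separate mouse is not stated, and p-values cover the spread among samples only, which may be technical.

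A diet without methionine and choline withholds the precursors of phosphatidylcholine, which the liver needs to export fat in lipoproteins, and mice on it lose weight and body fat. STAM mice lack insulin and take in excess fat. The liver of either model stores fat and becomes inflamed. Among the systems described below, cytochromes of the Cyp2b, Cyp2c and Cyp3a families oxidise drugs and steroids and are controlled by the nuclear receptors CAR and PXR. Interferons are antiviral signals that raise a common set of genes through STAT and IRF factors. The enzymes of fatty acid synthesis are raised by insulin and sugar through SREBP1c and ChREBP, and gluconeogenesis is restrained by insulin.

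Libraries held 17250328 to 25911864 reads, and every library held liver RNA: 20 hepatocyte genes together took 74300 to 156000 CPM, the reads of a gene as counts per a fixed number of library reads. Of 15 adipocyte, muscle, acinar and erythroid markers, 2 acinar genes of the pancreas, Pnlip and Prss1, had no read. The 15 together took 3480 to 4350 CPM in CD and 561 to 1500 in MCD livers. They took 2360 to 5530 in 10wk_Ctrl and 784 to 1730 in 10wk_STAM livers. The source of these reads was not tested. The authors' scaling factors lay between 0.832 and 0.899 in CD, 1.11 and 1.23 in MCD, 0.878 and 0.939 in 10wk_Ctrl and 1.05 and 1.16 in 10wk_STAM livers, so every direction below is relative to that scaling. With libraries scaled to total reads instead, the median effect over all genes moved from 0.06 to 0.48 for MCD and from 0.04 to 0.33 for STAM on the log2 scale. The median difference between the effects moved only from -0.02 to 0.11. The library that stood farthest from its group was 10wk_Ctrl replicate 1, with 319 of 11605 genes more than 2-fold from the other controls, and without it 331 and 290 genes were opposite in the 2 directions. No library was left out.

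Most genes that responded in both models responded the same way. The MCD effect passed the test in 48.3% of genes and the STAM effect in 46.5%. Both effects were called higher for 1912 genes (12.8% of those tested) and lower for 1615 (10.8%), against 310 (2.07%) and 263 (1.75%) that were opposite, as the plot of the 2 effects shows. The opposite changes were mostly small. In genes higher in MCD and lower in STAM livers the median MCD effect was 0.45 and the median STAM effect -0.38 on the log2 scale, and in the other direction the medians were -0.63 and 0.53. The smaller of the 2 effects reached 1 on the log2 scale, a 2-fold change, in 18 genes of the first direction and 28 of the second. In 255 of the 573 genes the groups of each table did not overlap, which makes 1.70% of all tested genes. Of all tested genes, opposite or not, 2642 (17.6%) had no overlap in either table. The difference itself, MCD effect minus STAM effect, passed the test in 4178 genes (27.9%). All 573 opposite genes were among them, which their definition made nearly certain, since effects of different sign add up in the difference. It was higher in 1929 (12.9%) and lower in 2249 (15.0%), and with scaling to total reads in 2671 and 1601.

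**Figure D1:**
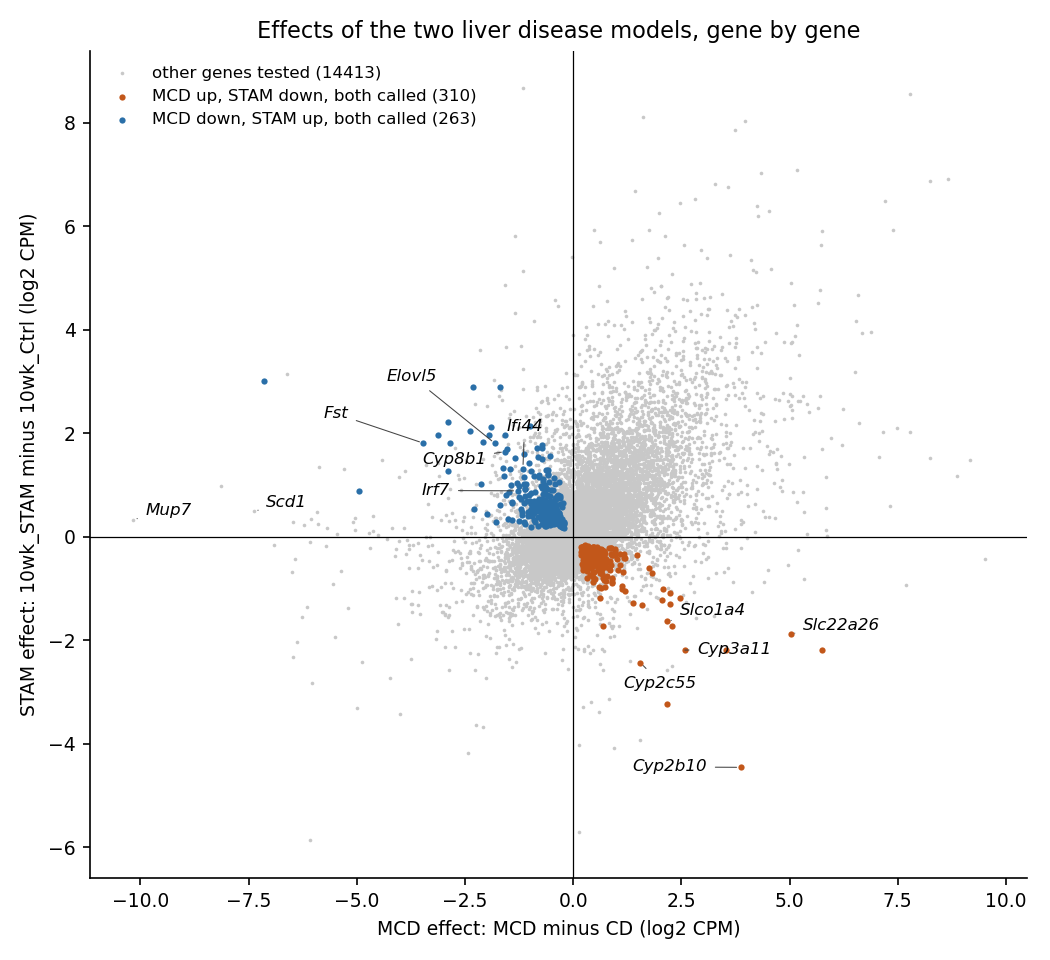
MCD effect (x axis) against STAM effect (y axis) of the 14986 genes tested, both in log2 CPM, each point a gene. The 310 genes called higher in MCD and lower in STAM livers lie at the lower right, with Cyp2b10 lowest, and the 263 called the other way lie at the upper left, while most genes called in both models lie along the rising diagonal.

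The opposite calls depended on scaling. Of the 310 genes, 57 were called opposite again with scaling to total reads and 189 with quantile normalization, and of the 263 genes 82 and 165. Both signs held under all 3 scalings in 237 and 198 of them, and both calls in 52 and 62. In the authors' deposited tables of fold changes, all 310 and all 263 had the same signs, and 170 and 186 were also below 0.05 in both adjusted p columns. Those fold changes come from the same libraries, so the signs were nearly certain to match and are no separate check. The STAM study also held 5 STAM and 5 control livers at 4 weeks, in libraries separate from the 18 but of the same study. The high-fat diet started at week 4, and how much of it these STAM livers had is not stated. There, 58 of the 263 genes lower in MCD and higher in 10-week STAM livers were already higher (22.1%, against 6.66% of all genes), and 3 were lower. Genes higher in both models were higher at 4 weeks in 24.2%, a share like that of the opposite genes. Of the 310 genes of the other direction, 13 were lower at 4 weeks (4.19%, against 3.36% of all genes and 13.7% of genes lower in both models) and 5 were higher.

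Genes of drug and steroid metabolism were among those with the largest opposite changes of the first direction. The list of drug-metabolising cytochromes with their receptors held 22 genes. Of these, 12 were called higher and 4 lower in MCD effect than in STAM effect, against 12.9% and 15.0% of all genes. Its median MCD effect was 0.25 and its median STAM effect -0.84, against 0.06 and 0.04 over all genes. In MCD livers 9 members rose and 7 fell, against 25.1% and 23.2% of all genes. In STAM livers 1 rose and 16 fell, against 24.9% and 21.6%. Both effects were lower in 6 members (against 10.8% of all genes) and higher in 1 (against 12.8%). Opposite were 5 members (against 2.07% of all genes), namely Cyp2b10, Cyp3a11, Cyp2c55, Cyp1a1 and Cyp3a25, and with scaling to total reads or quantiles 6 members. In bulk tissue, fewer cells of a type and less RNA per cell cannot be told apart. The summed level of the 20 hepatocyte genes was lower in both models, at 97400 to 128000 CPM in MCD against 133000 to 156000 in CD, and at 74300 to 90600 in 10wk_STAM against 120000 to 149000 in 10wk_Ctrl livers, and its part in these results was not tested.

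Cyp2b10 (chr7:25897658-25926624, mm10), the classic target of CAR, had the largest smaller effect of all opposite genes. Its level was -0.47, -0.66, -0.83 and -3.68 log2 CPM in the 4 CD livers and 2.72, 2.06, 2.56 and 2.52 in the 4 MCD livers. In the STAM study it was 4.34, 4.95, 5.28, 5.79 and 6.52 in controls and 0.55, 1.70, 1.10, 0.07 and 1.16 in STAM livers. The groups did not overlap in either table, and CD replicate 4, with 1 read against 10 to 14 in the other CD livers, was the lowest. The MCD effect was 3.87 ± 0.60 (SE; limma adjusted p = 6.73e-05), the STAM effect -4.46 ± 0.54 (8.82e-06), and their difference 8.33 ± 0.81 (2.59e-06). Levels of the 2 tables were scaled apart, but side by side MCD livers still lay below the STAM controls.

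Cyp3a11 (chr5:145854607-145879854), the main drug-oxidising Cyp3a enzyme of mouse liver and a target of PXR, was far more abundant. It was at 9.83, 9.58, 9.41 and 8.74 log2 CPM in CD and 11.90, 12.13, 12.15 and 11.71 in MCD livers. STAM controls had 11.93, 12.72, 12.46, 12.61 and 12.61, and STAM livers 10.18, 10.21, 10.06, 10.12 and 10.79. Every MCD liver was above every CD liver and every STAM liver below every control, a 5.99-fold rise (log2 2.58 ± 0.21 SE) and a 4.57-fold fall (log2 -2.19 ± 0.19 SE).

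The other opposite members of the list had smaller changes. Cyp2c55, an inducible fatty acid epoxygenase, had an MCD effect of 1.55 ± 0.31 (SE) and a STAM effect of -2.44 ± 0.27. Cyp1a1, the main target of the aryl hydrocarbon receptor, had effects of 1.59 ± 0.26 and -1.32 ± 0.23. Cyp3a25 had 0.50 and -0.82. Cyp3a16, a relative of Cyp3a11 from the list of female-biased liver genes, had 6, 0, 1 and 0 reads in the CD livers and 42 to 89 in the MCD livers, against 153 to 424 in STAM controls and 62 to 123 in STAM livers. Its STAM effect was -2.20 ± 0.67, while its MCD effect rests on so few CD reads that its size is uncertain. Of the list's members that were not opposite, 2 are named after their values were seen. Cyp2c29 and the retinoic acid hydroxylase Cyp26a1, fell in STAM livers by 4.02 and 5.71 on the log2 scale with MCD effects of 0.13 and 0.13 that did not pass the test. Reads of such near-identical Cyp genes may have been split among the family by a rule that the labels do not record.

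Among carriers of bile acids, drugs and organic anions, the widest opposite change without overlap was that of Slco1a4. Slco1a4 (chr6:141805440-141856171), an uptake carrier of the sinusoidal membrane, was at 4.79, 5.38, 5.18 and 4.97 log2 CPM in CD and 7.11, 7.57, 7.26 and 7.05 in MCD livers. It was at 5.15, 6.23, 5.85, 5.98 and 6.83 in STAM controls and 3.46, 5.01, 4.31, 4.19 and 4.86 in STAM livers. Both tables were free of overlap, with an MCD effect of 2.17 ± 0.33 and a STAM effect of -1.64 ± 0.30. Slc22a26, an organic anion carrier, rose by 5.02 ± 0.48 in MCD livers, from 2 to 9 reads to 168 to 251 reads, and fell by 1.88 ± 0.43 in STAM livers, where the groups overlapped. Of 15 Slc22 and Slco carriers tested, a list added after values were seen, 5 were higher and 6 lower in MCD effect than in STAM effect (against 12.9% and 15.0% of all genes), and only Slco1a4 and Slc22a26 were opposite (against 2.07% of all genes). At 4 weeks of age the STAM effect of Slco1a4 was already -1.39 ± 0.13 and that of Slc22a26 -1.96 ± 0.37. In the cytochrome list 0 of the 22 genes were higher and 2 lower there, against 6.66% and 3.36% of all genes. Without 4wk_Ctrl replicate 1, left out in an alternative added after seeing the data, it was 2 and 3. Cyp2b10 and Cyp3a11 did not pass the test there, at -1.13 ± 0.54 and 0.31 ± 0.22.

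**Figure D2:**
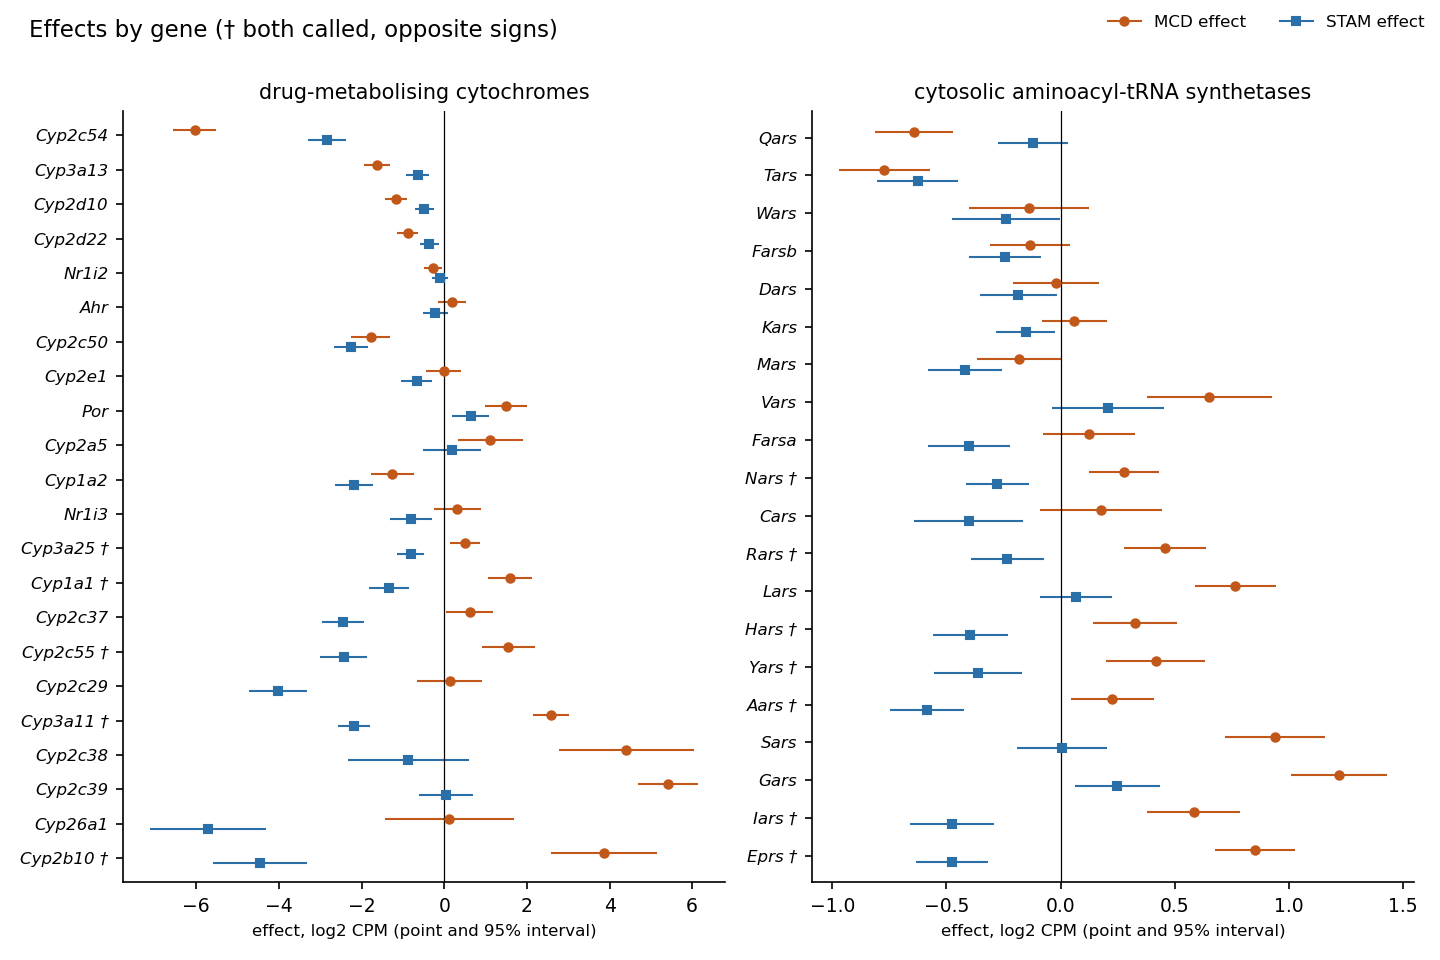
MCD effect (circles) and STAM effect (squares) in log2 CPM with 95% intervals for each tested gene of the drug-metabolising cytochrome list (left) and of the cytosolic aminoacyl-tRNA synthetases (right). Daggers mark the opposite genes, 5 and 7, whose circle lies right and whose square lies left of 0.

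The other genes with large opposite changes of this direction, chosen by a rule given below, were in none of the gene lists. Gm6484 rose by 2.17 ± 0.45 in MCD livers and fell by 3.24 ± 0.41 in STAM livers. D130043K22Rik had effects of 1.38 ± 0.17 and -1.28 ± 0.16, and Ppp4r4, a regulatory subunit of protein phosphatase 4, had 1.19 ± 0.21 and -1.05 ± 0.18. Both were also lower in STAM livers at 4 weeks, with effects of -1.17 ± 0.22 and -0.85 ± 0.15. Fam72a changed by 1.13 ± 0.25 and -1.02 ± 0.22 from only 13 to 87 reads a library. The calcium channel subunit gene Orai1 changed by 0.76 ± 0.18 and -0.85 ± 0.16, and Dopey2 by 0.71 ± 0.16 and -0.84 ± 0.14. Ahi1, a gene of the primary cilium, changed by 0.79 ± 0.20 and -0.76 ± 0.18 from 21 to 110 reads a library. With quantile normalization its MCD effect was 0.33 and did not pass (adjusted p = 0.202). These 7 genes, the 3 cytochromes, Cyp1a1 and Slco1a4 were the 12 with the largest smaller effect among opposite genes without overlap and with a mean level above 0 log2 CPM in both tables. All 12 kept both calls when any of the 18 libraries was left out and with scaling to total reads. Their choice by size and lack of overlap in these same libraries favoured that outcome.

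Genes of protein synthesis formed a second group of this direction. Of 47 genes of ribosome biogenesis, the making of ribosomal subunits in the nucleolus, 35 were higher in MCD effect than in STAM effect and 0 lower, against 12.9% and 15.0% of all genes. Their median MCD effect was 0.38, with 28 higher and 1 lower, and their median STAM effect -0.24, with 0 higher and 20 lower. The list was added after values were seen. Opposite were 11 of them (against 2.07% of all genes), and with scaling to total reads 2. The STAM direction of the list flipped under that scaling, with 8 genes higher and 2 lower and a median of 0.05. Bysl and Mdn1, which act in the maturation of the small and the large subunit, had MCD effects of 0.72 ± 0.13 and 0.49 ± 0.14 and STAM effects of -0.56 ± 0.12 and -0.69 ± 0.13. With scaling to total reads the STAM effect of Bysl was -0.27 and did not pass (adjusted p = 0.0971).

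Of the enzymes of polyamine synthesis, Odc1, named after its values were seen, and Srm were opposite, while Sms (-0.19, adjusted p = 0.372, and -0.41, 0.0374) and Amd1 (0.05, 0.973, and -0.76, 0.532) were not. Odc1, ornithine decarboxylase, was at 6.07, 6.24, 6.11 and 6.13 log2 CPM in CD and 7.43, 7.23, 7.23 and 7.26 in MCD livers. STAM controls had 6.89, 6.72, 6.61, 6.85 and 6.76, and STAM livers 5.87, 6.22, 6.17, 5.98 and 6.15. The groups were apart in both tables, with effects of 1.15 ± 0.09 and -0.69 ± 0.08. Srm, spermidine synthase, which takes its aminopropyl group from decarboxylated S-adenosylmethionine, changed by 0.73 ± 0.16 and -0.44 ± 0.15. The STAM call of Srm was lost without 10wk_STAM replicate 5 (adjusted p = 0.0543) and with scaling to total reads, where the effect was -0.15 (0.458).

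Bysl, Mdn1 and Eprs were likewise named after their values were seen. Aminoacyl-tRNA synthetases load amino acids onto their tRNAs. Of the 20 cytosolic ones, also a list added after values were seen, 12 were higher and 1 lower in MCD effect than in STAM effect, against 12.9% and 15.0% of all genes. Opposite were 7, against 2.07% of all genes (2 with scaling to total reads, 5 with quantile normalization). Eprs, for glutamate and proline, had an MCD effect of 0.85 ± 0.08 and a STAM effect of -0.48 ± 0.08, with no overlap. Aars, for alanine, had 0.23 ± 0.09 and -0.58 ± 0.08. The MCD call of Aars was lost without any of 6 libraries, CD replicate 2, 3 or 4 or MCD replicate 1, 3 or 4 (adjusted p 0.0585 to 0.0981), when each table was fitted alone (0.0538) and with median-centred effects (0.127). The members did not move as one, since Gars rose in both models (1.22 and 0.25) and Tars fell in both (-0.77 and -0.63). Many synthetase genes are known targets of ATF4, which binds the CEBP-ATF response element, and the letters TGATGNAAN were searched for on both strands of RefSeq promoter windows (GRCm38.p6, 250 bases before to 50 after the start). They were found in 5 of 12 synthetase windows (41.7%), in 2.95% of windows of all tested genes and in 4.5% of all 27025 windows. In the first direction 11 of 245 windows held them (4.49%), against 2.95% of windows of tested genes and 4.5% of all windows. Of 26 genes in the list of serine synthesis and the integrated stress response, 10 rose in both models (against 12.8% of all genes), and only Aars was opposite. The stretch upstream of Aars, on the plus strand at chr8:111033679-111033787, shows the match in capitals, 113 bases before the start.
Aars: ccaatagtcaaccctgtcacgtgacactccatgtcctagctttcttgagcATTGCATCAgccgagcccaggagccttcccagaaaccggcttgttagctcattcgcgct
The match lies on the opposite strand of the gene, so the capitals read as the reverse complement of the letters searched.

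Interferon-response genes formed a group of the second direction. All 30 genes of the list were tested, and 27 were lower in MCD effect than in STAM effect (against 15.0% of all genes), with 0 higher. In MCD livers 20 fell and 0 rose (against 23.2% and 25.1% of all genes), with a median effect of -0.57. In STAM livers 25 rose and 1 fell (against 24.9% and 21.6%), with a median of 0.89. Both effects were called in opposite directions for 15 members (against 1.75% of all genes), for 13 to 16 when 1 library was left out and for 15 with quantile normalization. With scaling to total reads it was 8, with 10 members lower and 2 higher in MCD livers, while 24 were lower in the difference. At 4 weeks, in libraries of their own, 27 of the 30 were higher in STAM livers (28 without 4wk_Ctrl replicate 1) and 0 lower, against 6.66% and 3.36% of all genes.

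Irf7, the factor that amplifies the interferon response, was at 6.49, 6.33, 6.33 and 6.46 log2 CPM in CD and 5.16, 4.84, 4.90 and 5.59 in MCD livers. It was at 4.67, 4.95, 5.34, 4.68 and 4.75 in STAM controls and 5.93, 5.87, 5.90, 5.85 and 5.27 in STAM livers. MCD livers lay wholly below CD livers, and 1 STAM liver lay below 1 control. The MCD effect was -1.28 ± 0.17 and the STAM effect 0.88 ± 0.15, with a difference of -2.17 ± 0.23 (limma adjusted p = 1.60e-06).

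Ifi44 had the largest smaller effect among the opposite genes of the list. Its level was 5.31, 4.80, 4.60 and 5.20 log2 CPM in CD, 4.23, 3.75, 3.42 and 3.87 in MCD, 2.46, 2.13, 2.43, 2.07 and 2.38 in STAM control and 3.63, 3.67, 3.72, 3.81 and 3.19 in STAM livers. Neither table had an overlap, and the effects were -1.16 ± 0.18 and 1.31 ± 0.16. Ifit3 had -1.11 ± 0.16 and 0.93 ± 0.14. Xaf1, a proapoptotic interferon target, had -0.91 ± 0.20 and 1.17 ± 0.18. Ifi27, which is not in the list and was named after its values were seen, had -1.26 ± 0.16 and 0.98 ± 0.15. Not all members were opposite, and the next 4 are examples of those that were not, named after their values were seen. Stat2, a part of the interferon-activated complex ISGF3, fell in both models (-0.98 ± 0.13 and -0.34 ± 0.12), though its STAM call was lost without 10wk_Ctrl replicate 1 or 10wk_STAM replicate 2 (adjusted p 0.0515 and 0.0720) and with scaling to total reads (0.744) or quantiles (0.286). The difference did not pass for Oasl1, Rsad2 and Gbp2. Oasl1 had -0.05 (0.842) and 0.65. Rsad2 and Gbp2 rose in STAM livers (1.05 ± 0.22 and 0.77 ± 0.22), with MCD effects of 0.55 ± 0.25 and 0.49 ± 0.24 that did not pass (0.0814 and 0.104). With scaling to total reads these MCD effects were 0.97 (0.00503) and 0.92 (0.00466). They also passed without MCD replicate 3 or 10wk_Ctrl replicate 4 for Rsad2 (0.0153 and 0.0338) and without MCD replicate 2 for Gbp2 (0.0403).

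**Figure D3:**
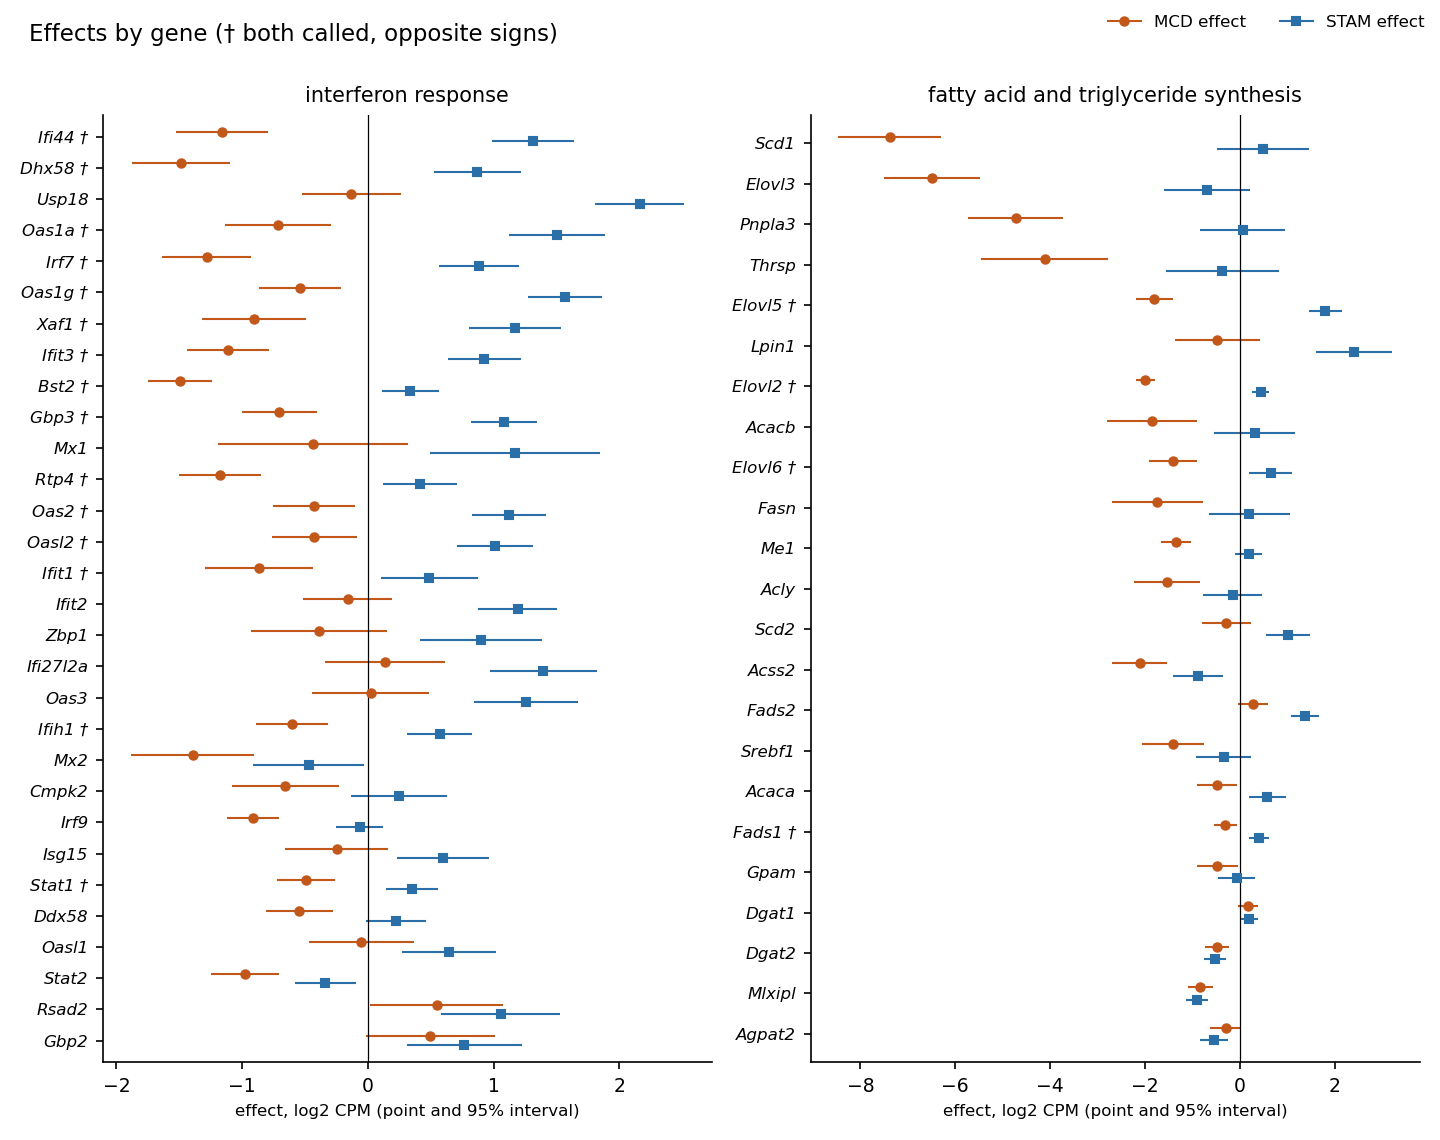
MCD effect (circles) and STAM effect (squares) in log2 CPM with 95% intervals for each tested gene of the interferon response list (left) and of the fatty acid and triglyceride synthesis list (right). Daggers mark the 15 and 4 opposite genes, whose circle lies left and whose square lies right of 0, and Rsad2 and Gbp2 at the bottom left lie right of 0 in both.

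The control livers of the 2 tables also differed in these genes. Over the 15 opposite members the median level was 4.98 log2 CPM in CD, 4.02 in MCD, 3.39 in 10wk_Ctrl and 4.19 in 10wk_STAM livers, and 3.60 and 4.81 in controls and STAM livers at 4 weeks. These levels come from tables that the authors scaled apart. All 15 were higher in CD than in 10wk_Ctrl livers, by a median of 1.51, whereas MCD and 10wk_STAM livers differed by a median of -0.14. The gap between controls was the wider one in 14 of the 15, against 41.1% of all genes and 39.5% of the 263 genes of this direction. Among the 5 opposite members of the cytochrome list both gaps were wide, with CD below 10wk_Ctrl livers by a median of 1.61 and MCD above 10wk_STAM livers by a median of 1.55. The gap between diseased livers minus the gap between controls equals the difference of the 2 effects, so the choice of opposite genes set that quantity.

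Markers of immune cells were set beside these values. Of 17 tested T cell and natural killer cell markers, 11 rose in STAM livers (against 24.9% of all genes) and 3 in MCD livers (against 25.1%), where 1 fell, and with quantile normalization 1 rose in STAM livers and 0 in MCD livers. Their summed level over 18 markers was 10.5 to 13.3 CPM in CD, 11 to 14.9 in MCD, 5.89 to 9.55 in 10wk_Ctrl and 11.1 to 17.5 in 10wk_STAM livers, and no marker was without reads. Of 21 recruited macrophage markers 18 rose in MCD and 18 in STAM livers, against the same shares of all genes, and 1, Fabp5, fell in MCD livers. The part of these cells in the interferon result was not tested.

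Promoter windows of these genes were searched for a shared motif. The interferon-stimulated response element, to which ISGF3 and IRF factors bind, has a core of GAAA, any 2 bases and GAAA, which reads TTTC, any 2 bases and TTTC on the other strand. They were found in 13 of 21 windows of the interferon list (61.9%) and in 7 of 11 windows of its opposite members. Of all 263 genes lower in MCD and higher in STAM livers, 190 had a window and 24 of these held the core (12.6%), against 7 of 245 in the other direction (2.86%), 3.88% of tested genes and 3.99% of all 27025 windows. Outside the interferon and antigen lists it was 17 of 175 (9.71%). A sterol response element core, TCACNCCAC, was in 1 window of each direction, against 1.50% of tested genes.

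The stretches below are upstream of 4 opposite members of the list, printed 5′ to 3′ on the strand of the gene to show where the cores lie, with the matches in capitals. They are Ifit3 (chr19:34583323-34583466, plus strand), Oas1a (chr5:120907526-120907595, minus strand), Bst2 (chr8:71537537-71537652, minus strand) and Gbp3 (chr3:142559949-142560043, plus strand), from RefSeq on GRCm38.p6.
Ifit3: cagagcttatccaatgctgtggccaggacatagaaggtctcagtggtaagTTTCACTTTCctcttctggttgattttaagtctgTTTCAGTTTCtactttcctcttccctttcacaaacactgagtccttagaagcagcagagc
Oas1a: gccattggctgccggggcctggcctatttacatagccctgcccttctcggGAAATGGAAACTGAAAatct
Bst2: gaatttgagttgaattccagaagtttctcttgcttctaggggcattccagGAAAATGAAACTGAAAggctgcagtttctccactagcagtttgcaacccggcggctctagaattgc
Gbp3: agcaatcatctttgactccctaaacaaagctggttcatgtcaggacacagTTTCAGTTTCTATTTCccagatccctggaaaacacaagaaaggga
Each of the 4 stretches holds 2 matches. They stand apart in Ifit3 and overlap in the others, and the first begins 156 bases before the start in Ifit3, 20 in Oas1a, 130 in Bst2 and 45 in Gbp3. The genes shown had MCD effects of -1.11, -0.72, -1.50 and -0.70 and STAM effects of 0.93, 1.50, 0.34 and 1.08 in that order. With scaling to total reads the MCD effects of Oas1a (-0.29, adjusted p = 0.243) and Gbp3 (-0.28, 0.106) did not pass, and without 10wk_Ctrl replicate 2 the STAM effect of Bst2 did not (0.0538).

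Genes that process antigens for major histocompatibility complex class I were opposite in part. Of 19 genes of antigen presentation, 11 were lower in MCD effect than in STAM effect and 0 higher, against 15.0% and 12.9% of all genes. In MCD livers 3 rose and 8 fell, against 25.1% and 23.2% of all genes. In STAM livers 15 rose and 0 fell, against 24.9% and 21.6% of all genes. Opposite were 5 members (against 1.75% of all genes), namely Tap1, Tapbp, Psmb8, Psmb9 and Nlrc5. Genes of the class I molecules, named after their values were seen, were not opposite. H2-K1, H2-T23 and B2m fell in MCD livers (-0.81, -0.82 and -0.90), with STAM effects that did not pass (-0.05, 0.09 and -0.03). H2-D1 and H2-Q4 rose in STAM livers (0.27 and 0.85), with MCD effects that did not pass (-0.22 and -0.09). Tap1 (chr17:34187556-34197225), which carries peptides into the endoplasmic reticulum, was at 5.53, 5.39, 5.14 and 5.09 log2 CPM in CD and 4.59, 4.05, 4.20 and 4.43 in MCD livers. STAM controls had 4.59, 4.10, 3.89, 3.90 and 4.07, and STAM livers 5.56, 5.46, 5.51, 5.28 and 5.06. There was no overlap in either table, and the effects were -0.97 ± 0.15 and 1.26 ± 0.14. The subunits of the immunoproteasome that cut these peptides did likewise, Psmb8 with -1.03 ± 0.13 and 0.81 ± 0.12 and Psmb9 with -0.82 ± 0.18 and 1.54 ± 0.16. Nlrc5, the activator of class I genes, had -0.60 ± 0.16 and 0.63 ± 0.14. With scaling to total reads the MCD effects of Psmb9 (-0.40, adjusted p = 0.0586) and Nlrc5 (-0.18, 0.292) did not pass. Another 3 members rose in both models. Tap1, Psmb8, Psmb9 and H2-T10 lie in the histocompatibility block of chromosome 17 (from 33996012 to 37483529), where 4 of 126 tested genes were of this direction (3.17%, against 1.75% of all genes).

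Most genes of fatty acid synthesis fell in MCD livers, and 3 of its elongases were opposite. Of 23 genes of fatty acid and triglyceride synthesis, 17 were lower in MCD effect than in STAM effect and 0 higher, against 15.0% and 12.9% of all genes. In MCD livers 16 fell and 0 rose (median -1.41), against 23.2% and 25.1% of all genes. In STAM livers 8 rose and 4 fell (median 0.19), against 24.9% and 21.6%. Opposite were 4 members, against 1.75% of all genes. Elovl5 (chr9:77917365-77984519), which elongates polyunsaturated fatty acids, was at 10.64, 10.25, 9.97 and 9.74 log2 CPM in CD and 8.11, 8.52, 8.55 and 8.19 in MCD livers. In STAM controls it was at 7.94, 7.99, 8.08, 7.75 and 8.42, and in STAM livers at 9.41, 10.09, 9.63, 10.02 and 10.03. The effects were of one size, -1.81 ± 0.19 and 1.80 ± 0.17, with no overlap, so that MCD livers reached the level of STAM controls and STAM livers nearly that of CD livers across the separately scaled tables. Elovl2, the elongase of longer polyunsaturated chains, had -1.99 ± 0.09 and 0.44 ± 0.08. Elovl6, which elongates palmitate, had -1.42 ± 0.24 and 0.65 ± 0.21, and its STAM call was lost without 10wk_Ctrl replicate 2 or 3 (adjusted p 0.0516 and 0.0549).

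The fourth opposite member of that list, Fads1, the delta-5 desaturase, was the weakest. Its MCD effect was -0.31 ± 0.12 and its STAM effect 0.40 ± 0.10, and the MCD effect turned to 0.12 with scaling to total reads and 0.35 with quantile normalization. The MCD call was also lost without CD replicate 1, 2 or 4 or MCD replicate 1 or 4 (adjusted p 0.0621 to 0.0995) and with the replicate number in the fit (0.0908), and with quantile normalization the difference did not pass (-0.32, 0.161). Scd1, the stearoyl-CoA desaturase, had the widest difference of the list without being opposite. It was at 13.05 to 14.27 log2 CPM in CD and 5.21 to 7.64 in MCD livers, an effect of -7.38 ± 0.51, and at 10.59 to 12.35 in STAM control and 11.69 to 12.94 in STAM livers, an effect of 0.49 ± 0.45 that did not pass (adjusted p = 0.400). Fasn, fatty acid synthase, had -1.74 ± 0.45 and 0.20 ± 0.40, and its difference of -1.94 ± 0.60 lost its call without MCD replicate 2 (0.0511) and with quantile normalization (0.0541).

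Several genes of bile acid, glucose and fatty acid use were opposite one by one. Cyp8b1 (chr9:121914356-121916305), the sterol hydroxylase that sets how much cholic acid is made, was at 8.70, 9.15, 9.11 and 8.61 log2 CPM in CD and 7.18, 7.14, 7.62 and 7.37 in MCD livers. It was at 7.55, 6.87, 7.57, 7.73 and 7.96 in STAM controls and 9.38, 9.30, 9.50, 9.09 and 8.62 in STAM livers. The groups were apart in both tables, with effects of -1.56 ± 0.21 and 1.64 ± 0.19. Cyp7a1, the rate-limiting enzyme of the same pathway, rose in MCD livers by 2.33 ± 0.38 and had a STAM effect of 0.79 ± 0.34 (adjusted p = 0.0703). The STAM effect passed with scaling to total reads (0.0124) or quantiles (0.0272) and without 10wk_Ctrl replicate 5 (0.0228). The difference of 1.54 ± 0.51 passed narrowly (0.0350) and was lost without any of 12 of the 18 libraries (0.0508 to 0.0711) and with the replicate number in the fit (0.120).

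Gys2, the liver glycogen synthase, named after its values were seen, was at 7.29, 7.40, 7.34 and 7.25 log2 CPM in CD, 6.37, 6.70, 6.52 and 6.53 in MCD, 7.06, 7.08, 7.08, 7.63 and 7.31 in STAM control and 8.82, 8.39, 8.74, 8.13 and 7.99 in STAM livers. The groups were apart in both tables, with effects of -0.79 ± 0.16 and 1.19 ± 0.14. Of 16 genes of gluconeogenesis and genes that insulin suppresses, 9 were lower in MCD effect than in STAM effect and 0 higher, against 15.0% and 12.9% of all genes. Opposite were 3 of them (against 1.75% of all genes), Pcx, Foxo1 and Fbp1. Pcx, pyruvate carboxylase, had -0.86 ± 0.14 and 0.60 ± 0.13, and its MCD effect did not pass with quantile normalization (-0.30, adjusted p = 0.0676). The MCD effects of Foxo1, a factor restrained by insulin, of the phosphatase Fbp1 and of Slc2a2, the glucose carrier GLUT2, were -0.42 ± 0.12, -0.39 ± 0.12 and -0.38 ± 0.12, beside STAM effects of 0.40 ± 0.11, 0.61 ± 0.10 and 0.48 ± 0.11, but their MCD signs turned with scaling to total reads (0.003, 0.03 and 0.04) and, for Fbp1 and Slc2a2, with quantiles (0.14 and 0.13). Pck1, the control point of gluconeogenesis, was called in neither model (0.35 ± 0.36 and 0.45 ± 0.33). It passed in both with quantile normalization (1.07 and 0.83), and its STAM effect passed without CD replicate 1 (0.0362), with each table fitted alone (0.00375) and with the replicate number (0.0479). Slc2a1, GLUT1, went the other way from Slc2a2, with 0.63 ± 0.12 and -0.30 ± 0.10, and its STAM call was lost without 10wk_Ctrl replicate 5 or 10wk_STAM replicate 2 or 4 (0.0601 to 0.0759) and with scaling to total reads (-0.005, 0.975).

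Among 30 genes of fatty acid oxidation and ketogenesis, 9 were lower and 4 higher in MCD effect than in STAM effect, against 15.0% and 12.9% of all genes. In this direction 3 were opposite, against 1.75% of all genes. Both effects were higher in 6 members, against 12.8% of all genes. Cyp4a32, a fatty acid omega-hydroxylase of a family with near-identical members, had -1.34 ± 0.33 and 1.51 ± 0.30. The family did not move as one, as relatives named after their values were seen show. Cyp4a10, Cyp4a14 and Cyp4a31 rose in MCD livers (3.06, 5.30 and 4.39), and of these only Cyp4a31 passed in STAM livers (2.38). Cyp4a12a and Cyp4a12b of the male-biased list fell in MCD livers (-4.31 and -3.06).

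**Figure D4:**
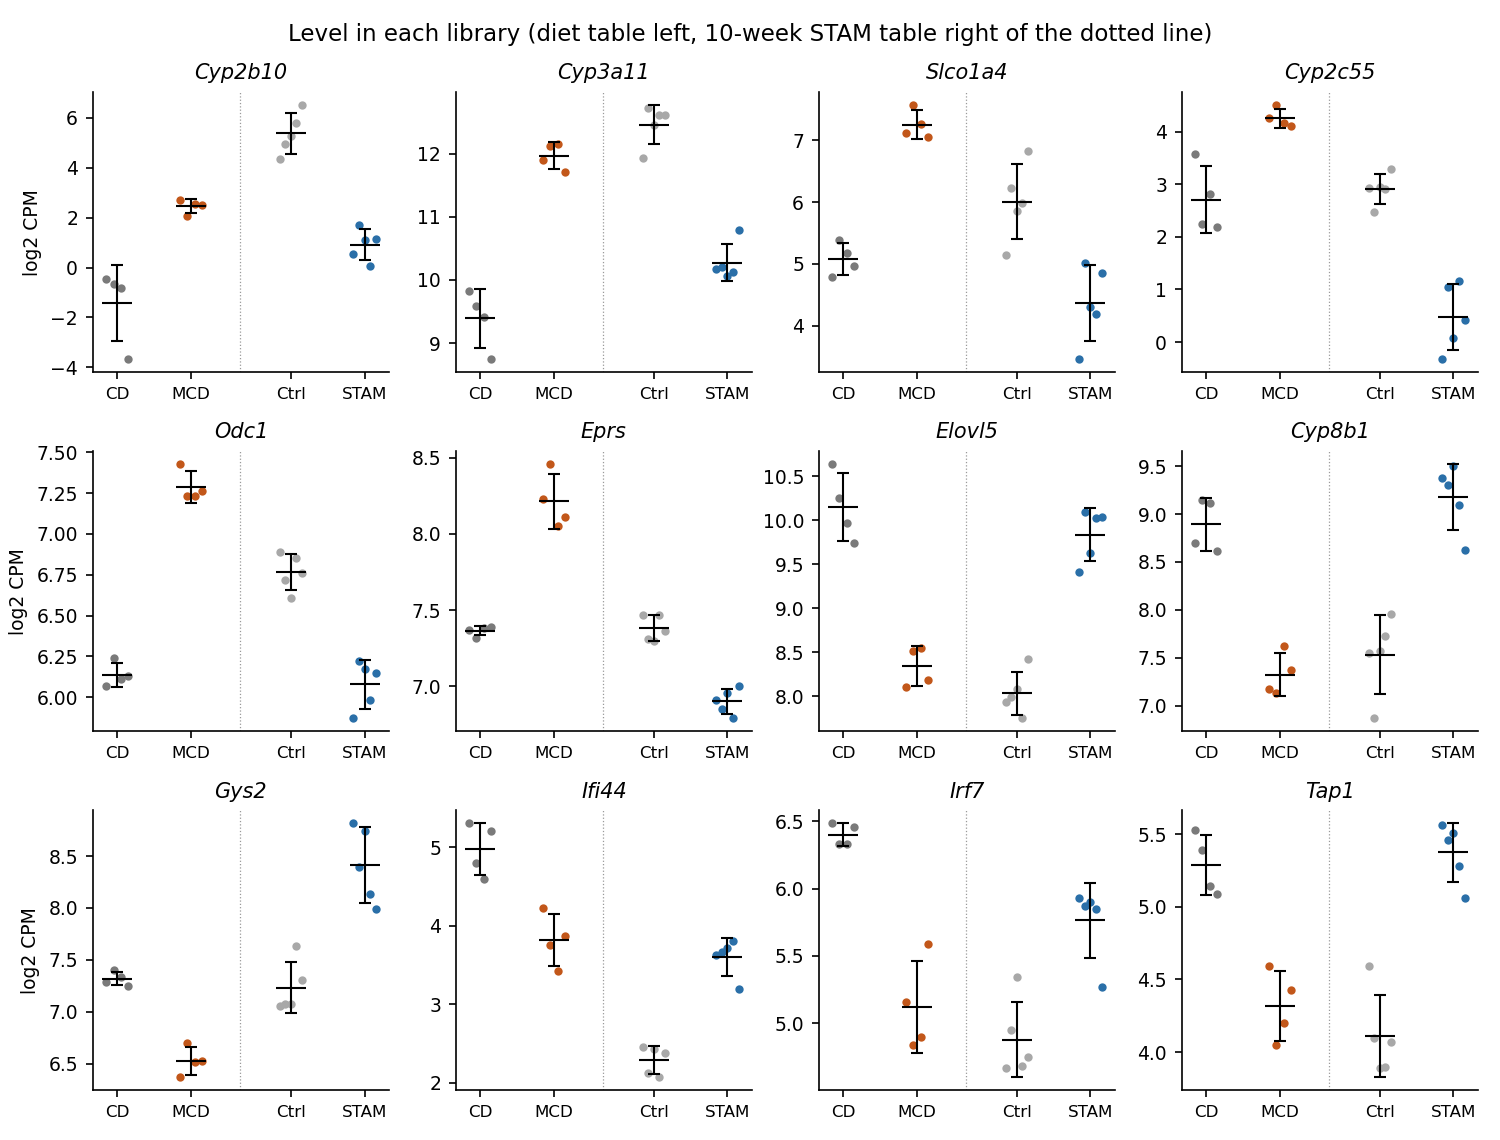
Level in log2 CPM of 12 genes in each of the 18 libraries, with CD (n = 4) and MCD (n = 4) left and STAM control (n = 5) and 10-week STAM (n = 5) right of the dotted line in each panel. Points are libraries and bars the mean ± SD. Cyp2b10 to Eprs rise from CD to MCD and fall from control to STAM, and Elovl5 to Tap1 do the reverse. The tables were scaled apart.

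Under the same rule and level limit, the other genes of the second direction were of mixed function. Fst, which encodes follistatin, a secreted inhibitor of activin, was at 3.18, 3.52, 4.03 and 3.58 log2 CPM in CD and 0.20, 0.55, -0.56 and 0.27 in MCD livers, and at 1.44, 2.25, 1.90, 0.60 and 1.93 in STAM control and 2.54, 4.13, 3.54, 3.72 and 3.21 in STAM livers. The groups were apart in both tables, with effects of -3.46 ± 0.35 and 1.80 ± 0.31. Plcxd1 had effects of -1.94 ± 0.34 and 1.97 ± 0.31. Hsbp1l1 had -2.07 ± 0.38 and 1.83 ± 0.34 from 5 to 80 reads a library. Zap70, the kinase of the T cell receptor, had -1.52 ± 0.28 and 1.70 ± 0.25 from 31 to 276 reads a library. The gene 9130409I23Rik had -2.89 ± 0.21 and 1.27 ± 0.19. Hlcs, which attaches biotin to carboxylases such as Pcx, had -1.09 ± 0.19 and 1.02 ± 0.17, and the homeobox gene Lhx6 had -1.14 ± 0.21 and 1.02 ± 0.19. Clic5 had -2.12 ± 0.31 and 1.02 ± 0.28, and with quantile normalization its STAM effect of 0.45 did not pass (adjusted p = 0.195). The 12 genes so chosen were these 8 with Elovl5, Cyp8b1, Cyp4a32 and Ifi44. All 12 kept both calls when any of the 18 libraries was left out and with scaling to total reads, an outcome that their choice again favoured.

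Lists with 1 or 2 opposite members gave few further genes. Lrat, which esterifies retinol in stellate cells, had an MCD effect of 0.69 ± 0.18 and a STAM effect of -0.80 ± 0.16 without overlap. Fdft1, squalene synthase, was the only opposite gene of 24 in cholesterol synthesis (against 2.07% of all genes). Of the 24, 9 were higher and 2 lower in MCD effect than in STAM effect, against 12.9% and 15.0% of all genes. Fdft1 had 0.56 ± 0.22 and -0.64 ± 0.19, and its MCD call was lost without any of the 4 CD libraries or MCD replicate 2, 3 or 4 (adjusted p 0.0546 to 0.118) and with median-centred effects (0.0646), its STAM call with scaling to total reads (0.121). Serpina3n, an acute phase protease inhibitor, had -0.97 ± 0.24 and 0.83 ± 0.21, and its MCD effect did not pass with quantile normalization (0.213). Apcs, serum amyloid P, went the other way, with 2.06 ± 0.46 and -1.23 ± 0.42, and its STAM call was lost without 10wk_Ctrl replicate 3 or 10wk_STAM replicate 2 (0.0559 and 0.0618), when each table was fitted alone (0.0794) and with scaling to total reads (0.0638).

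A last set of opposite calls was weak. Mbl2, a lectin that starts complement, fell in MCD livers by 1.78 ± 0.12, and its STAM effect of 0.29 ± 0.11 was lost without any of 7 libraries, 10wk_Ctrl replicate 2, 3 or 4 or 10wk_STAM replicate 1, 2, 3 or 4 (adjusted p 0.0528 to 0.101), when each table was fitted alone (0.0574), with the replicate number (0.0573) and with median-centred effects (0.0621). Colec11, another lectin, had -0.42 ± 0.15 and 0.70 ± 0.14, and its MCD effect was lost without CD replicate 2 or MCD replicate 2 or 4 (0.0621 to 0.105), with quantile normalization (0.0634) and with scaling to total reads, where it turned to 0.001. Cd4, with 15 to 55 reads a library, had -0.88 ± 0.32 and 0.86 ± 0.28. Its MCD call was lost without CD replicate 1 or 3 or MCD replicate 1 or 2 (0.0565 to 0.0964) and with scaling to total reads (0.221), its STAM call without 10wk_STAM replicate 2 (0.0527) and with quantile normalization (0.894). Further, of 24 genes in the list of glutathione enzymes and targets of NRF2, the oxidative stress factor, 2 were opposite in the first direction. This compares with 2.07% of all genes, and with scaling to total reads or quantiles it was 0. Both effects were higher in 6 members (against 12.8% of all genes) and lower in 2 (against 10.8%). Osgin1 had 0.90 ± 0.29 and -0.82 ± 0.26, Txnrd1 had 0.29 ± 0.10 and -0.30 ± 0.09, and neither STAM effect passed with scaling to total reads (0.113 and 0.953) or quantiles (0.0900 and 0.611). The MCD call of Osgin1 was lost without CD replicate 2 or 4 or MCD replicate 1 (0.0515 to 0.0522). That of Txnrd1 was lost without CD replicate 2 or MCD replicate 2 or 4 (0.0597 to 0.0684), when each table was fitted alone (0.0517), with the replicate number (0.0621) and with median-centred effects (0.0579).

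Among genes with a mean level above 0 log2 CPM in both tables, most of the widest differences between the models were in genes whose STAM effect did not pass. Under this limit the 5 most negative differences were those of Mup7 (-10.49 ± 0.94), Mup14 (-9.12 ± 0.78), Scd1 (-7.87 ± 0.68), Chrna4 (-6.76 ± 1.13, with 6 to 126 reads a library in the STAM study) and Mup12 (-6.74 ± 0.70). Major urinary proteins such as Mup7 are pheromone carriers made mainly by male liver. For these 5 genes the STAM effects lay between -0.17 and 0.98 and none passed, except that of Mup14 with scaling to total reads (adjusted p = 0.0455) or without 10wk_Ctrl replicate 1 (0.0298). Of the 5 most positive under the same limit, 4 were those of Cyp2b10, Slc22a26 (6.90 ± 0.65), Slc22a27 (6.74 ± 0.49) and Cyp2b9 (6.73 ± 1.58), and the call of Cyp2b9 was lost with a voom fit to the recovered reads (adjusted p = 0.0639). The STAM effect of Slc22a27, 0.59 ± 0.33, passed with scaling to total reads (0.0344). Of 23 female-biased liver genes 17 were higher and 0 lower in MCD effect than in STAM effect, and of 22 male-biased genes 18 were lower and 0 higher, against 12.9% higher and 15.0% lower of all genes. The median MCD effects of these lists were 4.42 and -4.68 beside median STAM effects of 0.66 and -0.31. Below the level limit, Cidea, a lipid droplet protein named after its values were seen, had a difference of -9.81, with an MCD effect of -1.15 that did not pass (adjusted p = 0.312) and a STAM effect of 8.66 (1.10e-07), whose size rests on controls with almost no reads. Mup and Slc22a genes have near-identical copies, and their single values are uncertain.

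Several lists held mostly genes called in the same direction in both models. Both effects were higher in 16 of 21 recruited macrophage markers, 23 of 32 genes of scar matrix and remodelling and 19 of 27 genes of cell division, against 12.8% of all genes, and 0 members of these lists were opposite (1 macrophage marker with quantile normalization and 2 scar genes with scaling to total reads). Exceptions were Fabp5 (-3.54 and -0.36), Fn1 (-0.73 and 0.13) and Col15a1 (-1.38 and 0.57), named after their values were seen, which fell in MCD livers and had STAM effects that did not pass. Trem2, a receptor of lipid-associated macrophages, rose by 3.08 ± 0.40 and 2.96 ± 0.36, and the difference of 0.12 had a 95% interval from -0.997 to 1.24. Mki67, a marker of dividing cells, rose by 2.06 ± 0.41 and 2.33 ± 0.37, with an interval of the difference from -1.45 to 0.91. Col1a1, the main scar collagen, rose by 1.57 ± 0.54 and 2.89 ± 0.49, and the interval of its difference, from -2.87 to 0.23, was wide, and the difference passed without 10wk_Ctrl replicate 1 (adjusted p = 0.0211). Its MCD call was lost without CD replicate 2 or 4 or MCD replicate 3 or 4 (adjusted p 0.0507 to 0.0703), with quantile normalization (0.0558), with a voom fit (0.0832) and with the replicate number (0.0895). Of 21 genes of folding in the endoplasmic reticulum, 18 fell in both models (against 10.8% of all genes) and 0 were opposite.

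**Figure D5:**
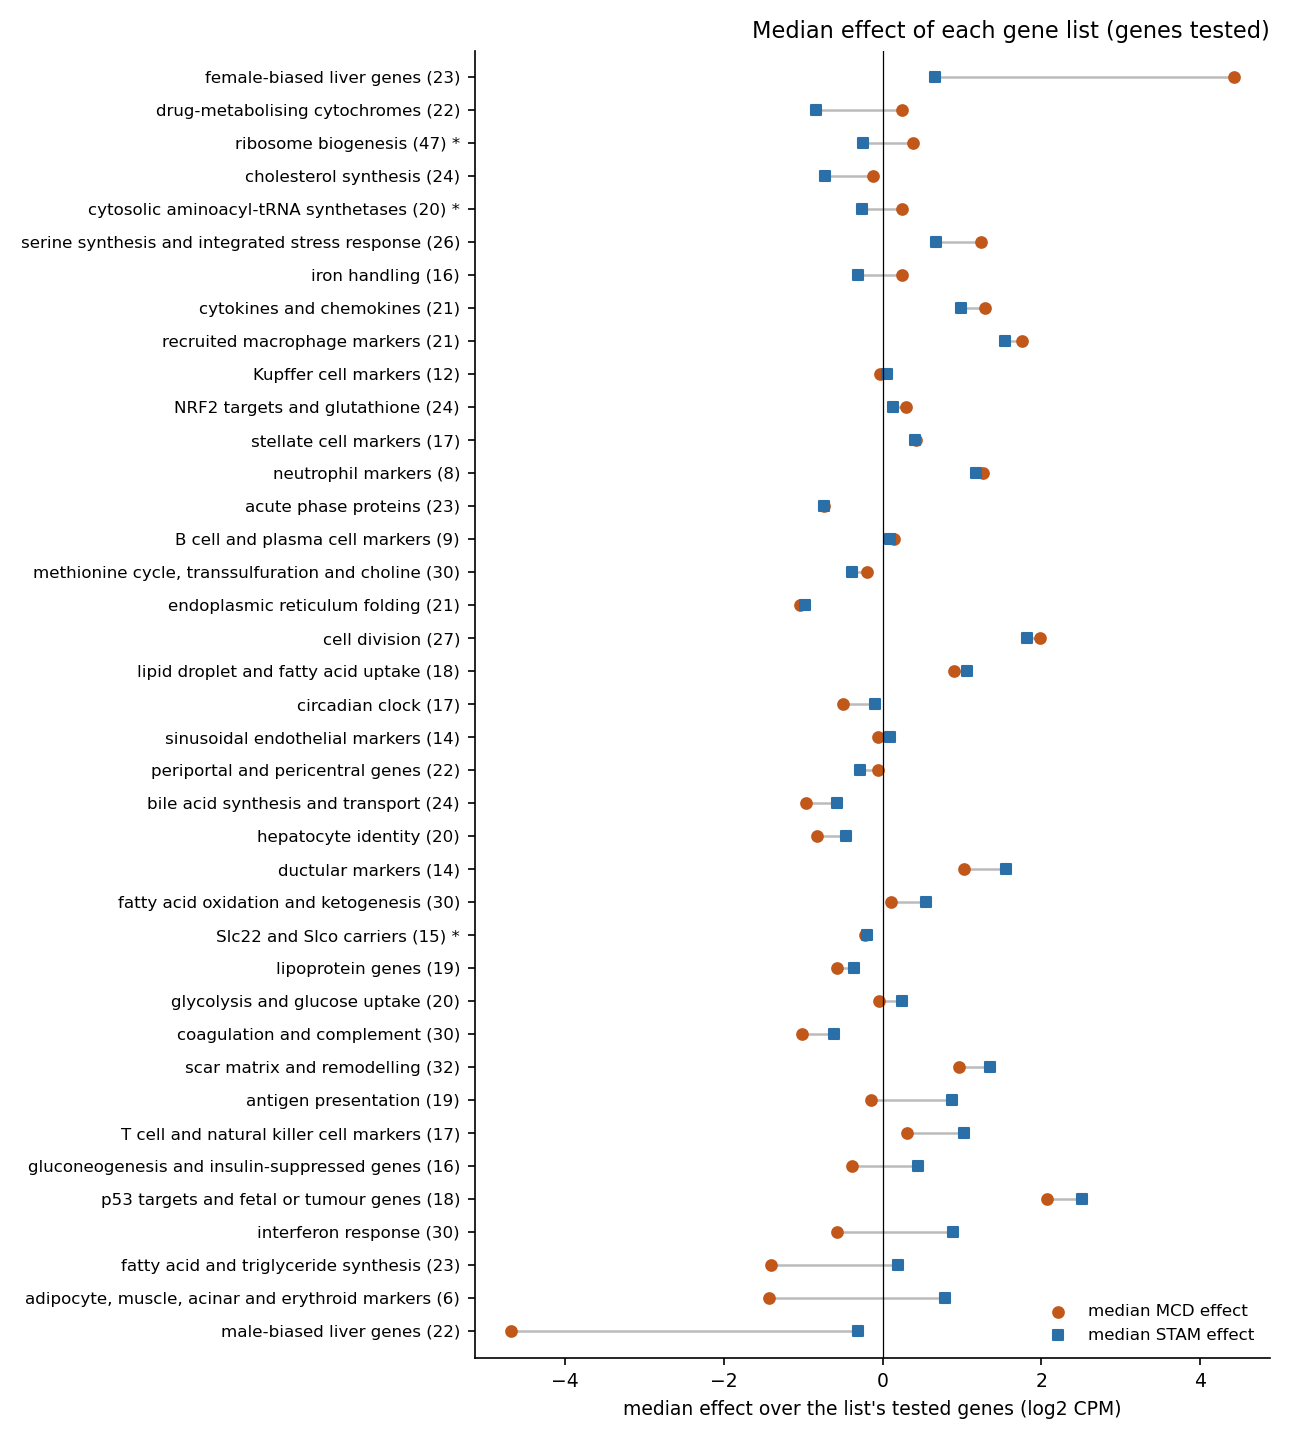
Median MCD effect (circles) and median STAM effect (squares) in log2 CPM over the tested genes of each of 36 gene lists and 3 added ones, with the number tested in brackets and lists ordered by median difference. Asterisks mark the 3 lists added after values were seen. The line between the points crosses 0 for the cytochromes, ribosome biogenesis, interferon response and antigen presentation lists among others, and is short for macrophage, cell division and folding lists.

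Set beside each other in the plot of list medians, 36 lists written with earlier results of these data known and 3 added ones ranged from the male-biased genes at one end to the female-biased genes at the other. Iron handling also stood on both sides of 0 (medians 0.24 and -0.31). Of its 16 genes 8 were higher and 3 lower in MCD effect than in STAM effect, against 12.9% and 15.0% of all genes, but 0 were opposite. The list of adipocyte, muscle, acinar and erythroid markers had only 6 tested genes.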

How the data were processed

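Poly(A) RNA of 18 mouse livers was sequenced as stranded paired-end libraries and aligned with STAR 2.4.2a to mm10, per the submitters' processing notes. The counter, annotation and authors' test were not named in any source used here. The values the authors deposited are log2 CPM with a prior of 0.25 reads, scaled within each table. Whole reads were recovered from these log2 values for every gene. The log2 fold changes and adjusted p-values of the authors' deposited tables served only to compare signs and calls.

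Genes above the 25th percentile of mean level in both tables were fitted with limma 3.58.1 (R 4.3.3, 4 group means, trended and robust variance), with Benjamini-Hochberg adjustment over all 14986 genes, two-sided, at 0.05. Replicate numbers do not pair the samples, so no block was used. Alternatives were other filters, scalings, priors and variance models, voom, separate fits, a replicate block and leaving out each library. In simulated data on 14986 genes, 27 of 100 true differences of 1 and 76 of 100 of 2 on the log2 scale were recovered. No other gene was changed there, whereas 27.9% of differences passed in the real data.

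Members and lists were chosen with earlier results of these data known. Named genes are the 12 opposite genes per direction with the largest smaller effect among those without overlap and with mean log2 CPM above 0, up to 4 opposite members of each list, the 5 largest differences per direction under the same level limit and 10 genes a reader would look for. Others are said to be named after their values were seen. Some genes so chosen are not reported here.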

Additional observations from a re-analysis of the deposited data

Results flagged for a closer look

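Among 128 groups of libraries over 32 named genes, 6 (4.69%) held 1 library far from the others by Dixon's test, where chance gives about 1 in 20. Cyp2b10 was at -3.68 log2 CPM in CD replicate 4, against -0.83 to -0.47 in the other CD livers. Cyp3a11 was at 10.79 in 10wk_STAM replicate 5, against 10.06 to 10.21, and Ifi44 at 3.19 in the same library, against 3.63 to 3.81. Gm6484 was at 5.19 in CD replicate 1, against 3.72 to 3.97. Fam72a was at 0.14 in 10wk_STAM replicate 2, against -0.54 to -0.40. Plcxd1 was at -0.64 in MCD replicate 4, against -0.40 to -0.37. The 6 genes kept both calls when any of the 18 libraries was left out, which their choice by size and lack of overlap favoured.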

How the results depend on the processing

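The count of genes higher in MCD and lower in STAM livers was 310, 191 with scaling to total reads and 200 with the replicate block. Requiring both effects to reach 1 on the log2 scale left 18 of these and 28 of the other direction. Without 1 library in turn, the counts ranged from 254 to 331 and from 214 to 290, and genes called in the difference from 3679 to 4312 (1699 to 2004 higher, 1980 to 2308 lower). Of called differences 46.2% were higher, 62.5% with scaling to total reads and 51.1% with quantile normalization. MCD effects that changed sign with scaling to total reads were those of Fads1 (0.12), Foxo1 (0.003), Fbp1 (0.033), Slc2a2 (0.043) and Colec11 (0.001), and with quantiles those of Fads1 (0.35), Fbp1 (0.14) and Slc2a2 (0.13). The cause was not tested. Of the values of named genes, 67 lost and 7 gained a call over all fits without 1 library and 41 and 15 under other settings. With the replicate block 3234 differences were called (1471 higher, 1763 lower) and 199 genes were opposite in the second direction. Same-numbered libraries had correlations of -0.127 to 0.007 over 9 pairs, and 0 of 18 libraries correlated best with their own number. In the simulation 27 of 100 differences of 1 on the log2 scale were recovered, but few genes were changed there. The share missed in the real data is therefore not known. Low-read genes such as Cyp3a16 and Cd4 are imprecise.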
